A study of Homo sapiens with 8 samples.

Results

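The genes described here encode enzymes of the tricarboxylic acid (TCA) cycle and the steps by which pyruvate, acetate and malate enter or leave it. The list names 30 genes by symbol, and all 30 were found in the deposited table of 23393 genes. All 30 also had enough reads to be tested, as did 15262 genes in all. The genes were read in RNA from MDA-MB-231, an established human triple-negative breast cancer cell line, and from its ρ0 cells, which have been depleted of mitochondrial DNA and come from 1 clone (clone 27). There were 4 groups of 2 libraries, namely parental control, parental arginine-starved, ρ0 control and ρ0 arginine-starved. According to the labels, starved cells received arginine deiminase, an enzyme that degrades arginine, at 0.3 µg/mL for 48 h in their full growth medium, while the study's text describes a medium without arginine. All 4 groups share a high-glucose DMEM with fetal bovine serum in the labels, and the study's methods add ethidium bromide, pyruvate and uridine for the derivation or upkeep of ρ0 cells. A difference between the lines therefore cannot be told apart from a difference of clone or of maintenance.

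The TCA cycle oxidizes acetyl-CoA in the mitochondrial matrix and passes the electrons as NADH and FADH2 to the respiratory chain. Pyruvate crosses the inner membrane through the MPC1-MPC2 carrier and becomes acetyl-CoA by the pyruvate dehydrogenase complex, which kinases switch off and phosphatases switch on. Pyruvate carboxylase refills the cycle with oxaloacetate, while malic enzymes and mitochondrial phosphoenolpyruvate carboxykinase draw carbon out of it. Several steps are run by more than one enzyme: IDH1 and IDH2 use NADP and work in the cytosol and the mitochondria, respectively, whereas the IDH3 complex uses NAD. Cells without mitochondrial DNA lack a working respiratory chain but keep these enzymes, all of which are encoded in the nucleus.

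The libraries held between 25259503 and 31022155 counts. Replicates differed beyond sampling noise in each group. Their biological coefficient of variation was 5.18% in parental control, 2.25% in parental arginine-starved, 25.1% in ρ0 control and 1.84% in ρ0 arginine-starved cells. The ρ0 control pair thus stood apart. Each gene's spread was estimated over all 4 groups together, so this pair also enters the standard errors and p-values in parental cells. In that pair 5 of the 30 genes differed by more than 1.5-fold, namely ACSS1 (2.15-fold), IDH1 (2.09-fold), FH (1.65-fold), PCK2 (1.63-fold) and PC (1.62-fold), against 1 gene in the ρ0 arginine-starved pair (IDH2) and 0 in either parental pair. None of the 13 protein genes of the mitochondrial genome was among the rows of the table, so the ρ0 state could not be checked by them. The mesenchymal markers VIM, CD44, AXL and CAV1 were abundant in all 8 libraries, with a summed level of at least 1989 CPM, the read counts scaled to a common library size. Of the 5 markers expected to be low in MDA-MB-231, ESR1 and PGR were near 0 throughout, while CDH1, EPCAM and ASS1 had at most 15 counts in a parental library and between 104 and 697 in a ρ0 library. The asparagine synthetase gene ASNS, a target of the amino acid response, went from 77.9 and 81.1 CPM to 407 and 415 in parental cells and from 34.8 and 69.8 to 409 and 412 in ρ0 cells. Its activator ATF4 went from 159 and 163 CPM to 543 and 537 in parental cells and from 144 and 201 to 322 and 319 in ρ0 cells.

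Arginine starvation moved most of these genes in parental cells, and more of them down than up. At an adjusted p-value under 0.05 with edgeR's quasi-likelihood test, 9 of 30 rose and 16 fell, while 5 did not pass. Over all tested genes 30.4% rose and 35.5% fell, so the share that rose was near the background and the share that fell was above it. The 30 genes were also more abundant, with a median level of 77.5 CPM against 25.6 over all tested genes. Genes with more reads pass more easily, and shares at like abundance were not tested. This limit also holds for the shares in ρ0 cells and between the control groups. Differentially expressed genes (DEGs), which also have a log2 fold change above 1 or below -1, numbered 1 higher and 8 lower, where the background was 12.7% higher and 22.1% lower. The DEG that rose was PCK2, and those that fell were ACO1, IDH1, IDH2, SUCLG2, PDHB, ACSS1, PC and D2HGDH. The median log2 fold change was -0.24 over the 30 genes and -0.07 over all tested genes. The groups did not overlap for 28 of the 30 genes, as for 89.2% of all tested genes. Values are shares of a library's reads, so a change in the total RNA of a cell cannot be seen in them, and fewer cells of a kind and less RNA per cell cannot be told apart.

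In ρ0 cells fewer of the 30 genes passed. There 6 rose and 12 fell, against a background of 19.2% higher and 22.1% lower, and 12 did not pass, so the share that fell was above the background. DEGs were PCK2, which was higher, and IDH2 and PC, which were lower, so 1 and 2 of 30 compared with 4.22% higher and 8.19% lower over all tested genes. The median log2 fold change was -0.15, against -0.02 over all tested genes, and the groups did not overlap for 24 genes, against 67.5% of all tested genes. The split of 6 higher and 12 lower became 3 and 14 when libraries were scaled by total counts. In both lines 14 genes passed in the same direction, against 27.7% of all tested genes, and CS and PDP1 passed in opposite directions, against 3.64%. The ρ0 calls of CS and PDP1 were lost in some alternative fits, given below. The 3 genes that were DEGs in both lines were IDH2, PC and PCK2, where 7.58% of all tested genes were DEGs in both.

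The difference between the responses (ρ0 minus parental) was tested as an interaction. It passed for 13 of 30 genes, near the 40.4% of all tested genes that passed. Of the 13, 9 lay above 0 and 4 below, while 21.6% of all tested genes passed above 0 and 18.8% below. The 9 genes with a positive difference were ACO1, IDH1, DLD, SUCLG2, PDHB, PDP1, ACSS1, ME3 and D2HGDH, each of which fell in parental cells. The 4 genes with a negative difference were CS, IDH3A, DLST and MPC2. When either ρ0 control library was left out, all 13 kept their sign. The p-values of those fits are not compared here, since the pair with the widest spread no longer enters them. Without any 1 of the other 6 libraries, between 3 and 5 of the 13 calls were lost, always IDH3A, MPC2 and DLST. DLD was lost without parental arginine-starved replicate 2 or ρ0 arginine-starved replicate 1, and ACSS1 without either parental arginine-starved library. With a weight for each group in limma-voom, 12 of the 13 were still called, the exception being DLST. ASS1, which the study describes as a step in making arginine from citrulline, also differed between the lines. It had 0.04 and 0.07 CPM in parental arginine-starved libraries. In ρ0 cells it went from 6.35 and 11.5 CPM in control to 23.1 and 22.3 in arginine-starved libraries. Whether both lines were starved to the same degree was not tested.

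**Figure D1:**
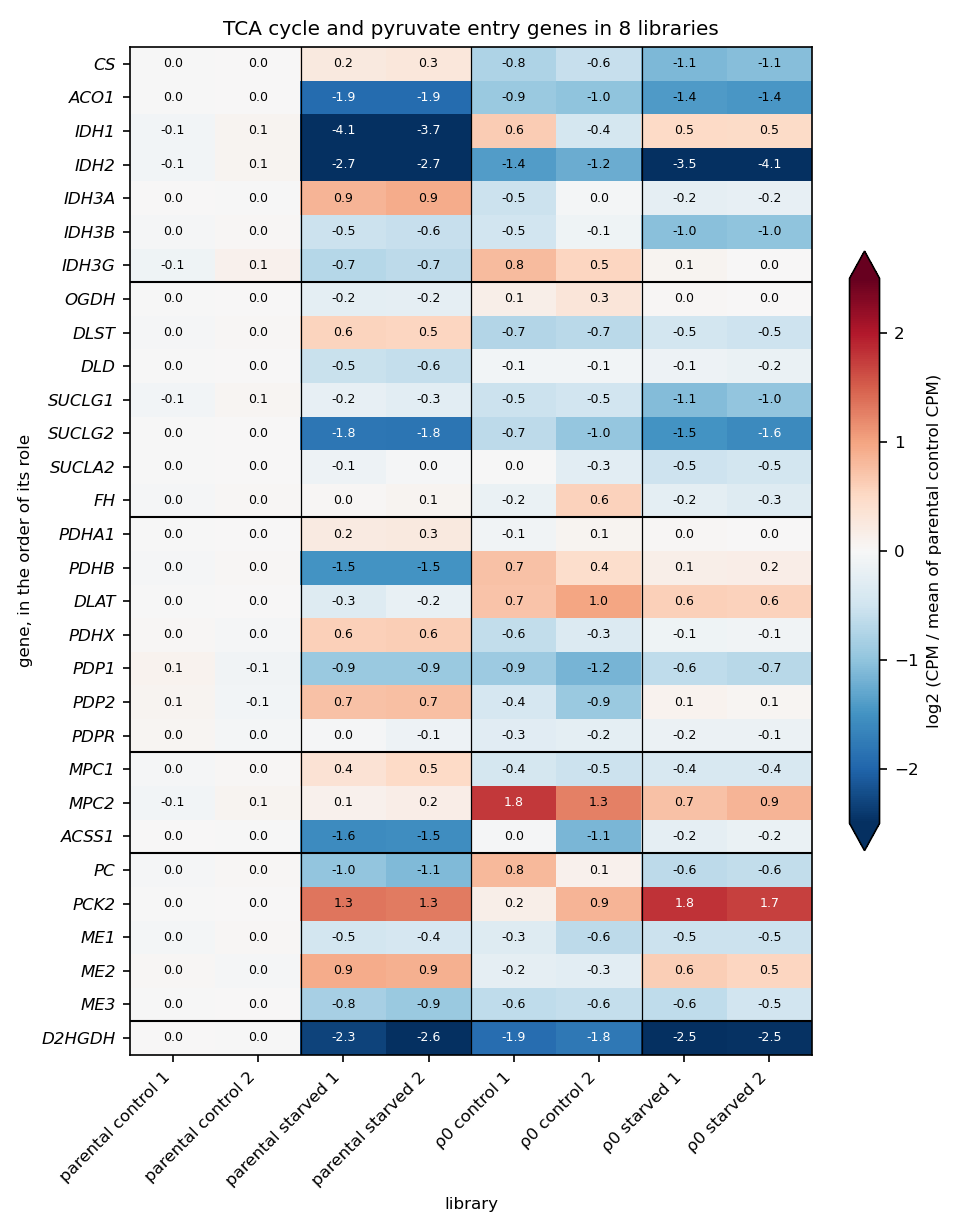
Heat map of the 30 genes (rows, in the order of their roles) in the 8 libraries (columns), coloured and labelled by the log2 ratio of each library's CPM to the mean of both parental control libraries. The darkest blue cells are those of IDH1 in the parental arginine-starved libraries and of IDH2 and D2HGDH in the starved libraries of both lines. PCK2 is red in the starved libraries of both lines.

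The path from citrate to α-ketoglutarate held the strongest falls. In parental cells 5 of its 7 genes fell and CS and IDH3A rose. Citrate synthase (CS), which starts the cycle by joining acetyl-CoA and oxaloacetate, had 179 and 179 CPM in parental control and 212 and 218 in parental arginine-starved libraries. Its small rise (log2 fold change 0.26 ± 0.09 (SE), adjusted p = 0.028) was lost under upper quartile scaling (adjusted p = 0.183), under total count scaling (0.348) and when any 1 parental library was left out, with an adjusted p of up to 0.138. In ρ0 cells CS went from 104.5 and 120.0 CPM to 82.3 and 85.6, a fall of -0.42 ± 0.09 (adjusted p = 0.0077), and the difference between the lines was -0.68 ± 0.12 (adjusted p = 0.0049). The fall in ρ0 cells was lost with the ρ0 libraries alone (adjusted p = 0.0737) and without ρ0 arginine-starved replicate 1 (log2 fold change -0.37) or replicate 2 (-0.43).

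ACO1, the cytosolic aconitase that doubles as iron regulatory protein 1 when it lacks its iron-sulfur cluster, fell in both lines and further in parental cells. Parental control libraries had 341 and 341 CPM and parental arginine-starved libraries had 89.8 and 89.3. In ρ0 cells the values were 179.9 and 169 CPM in control and 127 and 125 in arginine-starved libraries. The groups did not overlap in either line, and the starved parental cells were the lowest of all 4 groups. The log2 fold change was -1.93 ± 0.07 in parental cells (adjusted p = 6.5e-06) and -0.47 ± 0.07 in ρ0 cells (adjusted p = 0.0021), with a difference of 1.46 ± 0.10 (adjusted p = 0.0002).

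IDH1 showed the widest difference between the lines among the 30 genes. This cytosolic enzyme oxidizes isocitrate to α-ketoglutarate and yields NADPH. It had 51.1 and 56.6 CPM in parental control libraries and 3.05 and 4.25 in parental arginine-starved libraries. In ρ0 cells it had 83.1 and 39.7 CPM in control and 76.0 and 75.1 in arginine-starved libraries, so the starved values lay between the control values. The log2 fold change was -3.87 ± 0.36 in parental cells (adjusted p = 7.7e-05) and 0.30 ± 0.30 in ρ0 cells (adjusted p = 0.46). The ρ0 value rested on which control library was used, at 0.93 without replicate 1 and -0.13 without replicate 2. Between the lines the responses differed by 4.17 ± 0.47 (adjusted p = 9.1e-04), which was 4.80 and 3.70 without ρ0 control replicate 1 and 2, respectively.

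IDH2, the mitochondrial NADP-dependent isozyme, fell in both lines. It went from 37.9 and 41.9 CPM to 6.18 and 5.96 in parental cells and from 15.1 and 17.0 CPM to 3.45 and 2.28 in ρ0 cells. The highest starved library lay below the lowest control library in each line. The log2 fold changes were -2.72 ± 0.18 (adjusted p = 1.9e-05) and -2.47 ± 0.19 (adjusted p = 1.8e-04). The difference of 0.24 ± 0.26 did not pass (adjusted p = 0.48). IDH1 and IDH2, which catalyse the same reaction in separate compartments, both fell in parental cells, and in ρ0 cells IDH2 fell while IDH1 did not pass the test.

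The NAD-dependent isocitrate dehydrogenase is built from the catalytic subunit IDH3A and the subunits IDH3B and IDH3G, and in parental cells these moved apart. IDH3A rose from 97.0 and 97.0 CPM to 175.7 and 186 (log2 fold change 0.90 ± 0.15, adjusted p = 0.0012). IDH3B fell from 115 and 119 CPM to 80.7 and 78.2 (-0.56 ± 0.12, adjusted p = 0.0045), and IDH3G fell from 25.2 and 29.1 CPM to 16.5 and 17.1 (-0.69 ± 0.13, adjusted p = 0.0019). None of the 3 subunits' groups overlapped. In ρ0 cells IDH3B fell from 83.5 and 108.5 CPM to 57.1 and 58.3 (-0.73 ± 0.12, adjusted p = 0.0029) and IDH3G fell from 47.1 and 39.3 CPM to 28.5 and 27.3 (-0.63 ± 0.12, adjusted p = 0.0057), which was lost without ρ0 arginine-starved replicate 2 (-0.58, adjusted p = 0.0611). IDH3A had 66.5 and 94.2 CPM in ρ0 control and 83.5 and 84.2 in ρ0 arginine-starved libraries, with overlapping groups (0.06 ± 0.15, adjusted p = 0.77), and the sign turned to -0.17 without ρ0 control replicate 1. The difference between the lines passed for IDH3A (-0.84 ± 0.21, adjusted p = 0.017), but not when any 1 of the other 6 libraries was left out, where the adjusted p lay between 0.0531 and 0.069. In the GRCh38 annotation, 38.2% of the exon bases of IDH3A lie under exons of the antisense gene ACSBG1, whose own count was at most 10 in any library.

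**Figure D2:**
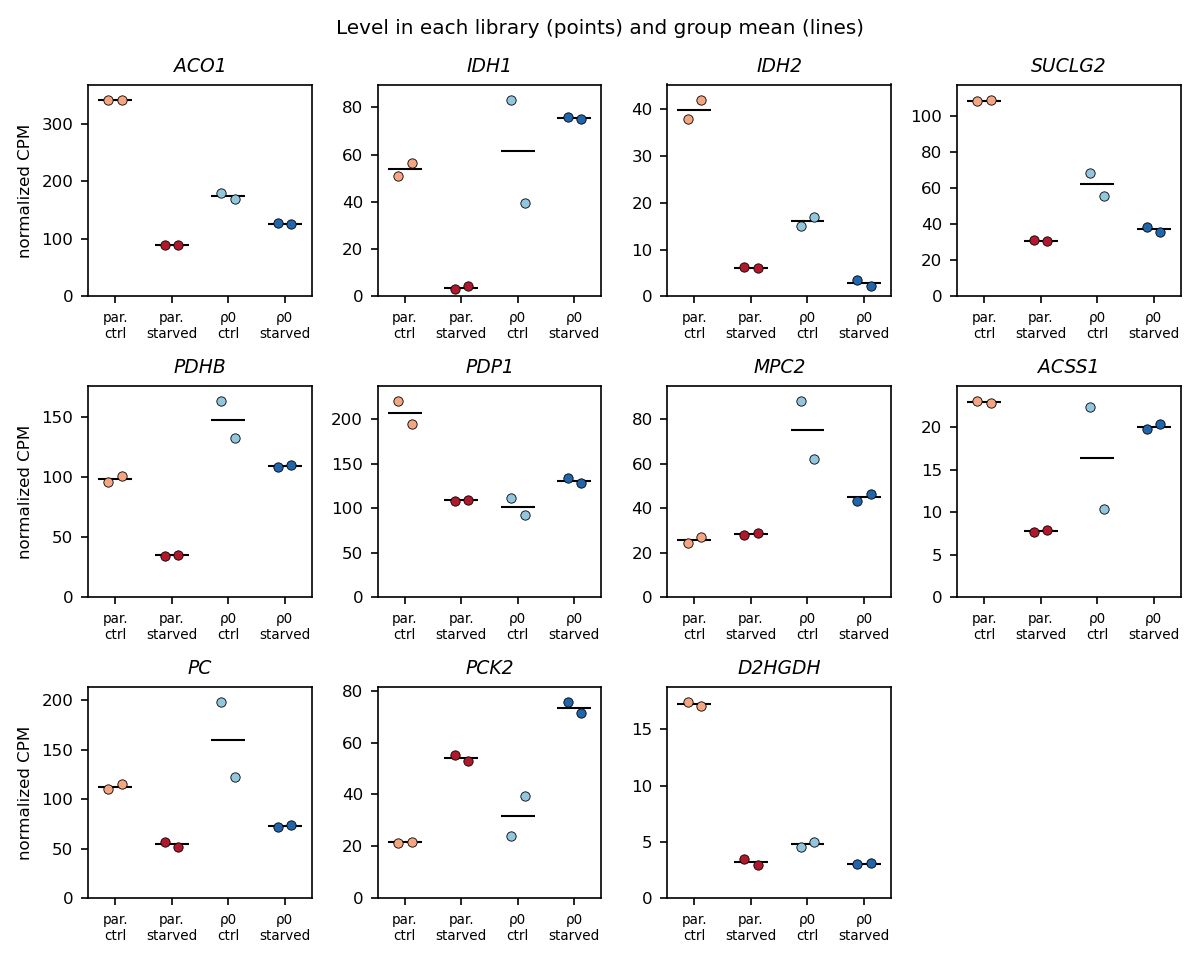
Level in normalized CPM (vertical axes, linear from 0) of the 11 genes that were DEGs in at least 1 comparison, with a point for each library and a line for each group mean. The 2 ρ0 control points lie far apart for IDH1, ACSS1, PC and PCK2, and the parental arginine-starved points lie below both parental control points in 9 panels, the exceptions being MPC2 and PCK2.

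From α-ketoglutarate to malate, 4 of 7 genes fell and 1 rose in parental cells. The 2-oxoglutarate dehydrogenase complex consists of OGDH (E1), DLST (E2) and DLD (E3), and its parts moved in opposite directions. DLST rose from 141 and 146.5 CPM to 212 and 209.5 (log2 fold change 0.55 ± 0.07, adjusted p = 3.5e-04). DLD, the E3 enzyme that the pyruvate dehydrogenase complex also uses, fell from 129 and 129.5 CPM to 88.4 and 86.0 (-0.57 ± 0.07, adjusted p = 2.5e-04). OGDH went from 259 and 261 CPM to 221 and 222 (-0.23 ± 0.08, adjusted p = 0.033), a small fall that was lost without the filter on low counts (adjusted p = 0.065) and when any 1 parental or ρ0 arginine-starved library was left out (adjusted p between 0.0996 and 0.147).

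In ρ0 cells the log2 fold changes of DLST and DLD lay closer to 0 than in parental cells, while that of OGDH was near its parental value. DLST had 86.5 and 89.9 CPM in control and 104.1 and 100.7 in arginine-starved libraries. Its rise (0.22 ± 0.07, adjusted p = 0.045) was lost in 7 of 10 alternative fits, with an adjusted p between 0.0538 and 0.274 in those, and without any 1 library other than a ρ0 control (adjusted p between 0.0735 and 0.203). The difference between the lines (-0.33 ± 0.10, adjusted p = 0.033) was likewise lost when any 1 of these 6 libraries was left out (adjusted p between 0.0744 and 0.125). DLD had 124 and 123 CPM in ρ0 control and 118 and 115 in ρ0 arginine-starved libraries (-0.09 ± 0.07, adjusted p = 0.36). The difference for DLD was 0.48 ± 0.10 (adjusted p = 0.0074), and it did not pass without parental arginine-starved replicate 2 (0.46, adjusted p = 0.0505) or ρ0 arginine-starved replicate 1 (0.44, adjusted p = 0.0575). OGDH had 287 and 319.8 CPM in ρ0 control and 265 and 261 in ρ0 arginine-starved libraries (-0.21 ± 0.08, adjusted p = 0.072). For OGDH the difference between the lines was 0.03 ± 0.11 and did not pass (adjusted p = 0.88).

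Succinyl-CoA ligase makes ATP or GTP depending on its β subunit, with SUCLA2 for ATP and SUCLG2 for GTP, both joined to the α subunit SUCLG1. SUCLG2 went from 108 and 108.5 CPM to 31.0 and 30.5 in parental cells and from 68.4 and 55.7 CPM to 38.5 and 35.7 in ρ0 cells. The groups did not overlap in either line. The log2 fold change was -1.82 ± 0.11 (adjusted p = 1.5e-05) in parental cells and -0.74 ± 0.11 (adjusted p = 0.0019) in ρ0 cells, and the difference was 1.07 ± 0.16 (adjusted p = 0.0022). SUCLA2 had 32.6 and 33.4 CPM in parental control and 30.1 and 32.4 in parental arginine-starved libraries (-0.08 ± 0.11, adjusted p = 0.56). SUCLG1 changed by -0.23 ± 0.08 in parental cells (adjusted p = 0.035), which was lost without the low-count filter (adjusted p = 0.0739) and without parental control replicate 2, either parental arginine-starved library or either ρ0 arginine-starved library, where it lay between 0.104 and 0.183. It fell by -0.53 ± 0.08 in ρ0 cells (adjusted p = 0.0023). The change of SUCLA2 in ρ0 cells (-0.36 ± 0.11, adjusted p = 0.034) was lost with a weight for each group (adjusted p = 0.184) and with the ρ0 libraries alone (0.139). Without the low-count filter (0.0607), with the replicate number as a block (0.0542) and without any 1 library other than a ρ0 control it was lost as well. Fumarase (FH) passed in none of the 4 comparisons, with log2 values from -0.58 to 0.25, and its ρ0 control libraries lay at 88.4 and 146 CPM. Its ρ0 change of -0.53 ± 0.20 (adjusted p = 0.072) became -0.85 and -0.11 without ρ0 control replicate 1 and 2, and passed with the DESeq2 test (adjusted p = 0.0431) and with a weight for each group (0.0405), as did the difference between the lines with that weight (0.0255).

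The pyruvate dehydrogenase complex showed the same kind of split. Its E1 enzyme is a tetramer of PDHA1 and PDHB, and PDHB fell in parental cells from 95.6 and 100.6 CPM to 34.7 and 34.8 (log2 fold change -1.50 ± 0.11, adjusted p = 2.8e-05). PDHA1 had 75.7 and 76.2 CPM in parental control and 88.5 and 90.5 in parental arginine-starved libraries (0.24 ± 0.08, adjusted p = 0.032), a rise that was lost under upper quartile (adjusted p = 0.238) and total count (0.457) scaling and without any 1 parental library (adjusted p between 0.105 and 0.152). In ρ0 cells PDHB went from 163 and 132 CPM to 107.9 and 109.9 (-0.44 ± 0.11, adjusted p = 0.014). That call was lost with the ρ0 libraries alone (adjusted p = 0.0912) and without either ρ0 arginine-starved library (-0.41 and -0.43). For PDHB the difference between the lines was 1.06 ± 0.15 (adjusted p = 0.002) and was called under each alternative that was run. PDHA1 in ρ0 cells had 71.4 and 79.9 CPM in control and 77.7 and 76.6 in arginine-starved libraries, so the groups overlapped. In GRCh38, 21.3% of the exon bases of PDHA1 are shared with MAP3K15, which had between 247 and 335 counts in parental and between 3 and 8 in ρ0 libraries.

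The other parts of the complex did not follow PDHB. PDHX, which anchors the E3 enzyme to the core, rose in parental cells from 97.9 and 94.8 CPM to 145 and 147 (0.60 ± 0.10, adjusted p = 0.001). In ρ0 cells it had 63.3 and 76.0 CPM in control and 89.3 and 90.5 in arginine-starved libraries (0.37 ± 0.10, adjusted p = 0.02), a rise that was lost without either ρ0 arginine-starved library (adjusted p of 0.0845 and 0.0936), under total count scaling (0.0559), with a weight for each group (0.0635) and with the ρ0 libraries alone (0.101). DLAT, the E2 core, had 88.1 and 89.9 CPM in parental control, 71.6 and 78.4 in parental arginine-starved, 146 and 175.7 in ρ0 control and 135 and 133 in ρ0 arginine-starved libraries. Its log2 values of -0.25 ± 0.10 and -0.26 ± 0.10 did not pass (adjusted p = 0.069 and 0.075), although the parental value passed under 5 alternatives, upper quartile scaling among them (adjusted p = 0.0161).

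The phosphatases that reactivate the complex also differed from each other. PDP1 fell in parental cells from 220.3 and 195 CPM to 108 and 109 (-0.93 ± 0.11, adjusted p = 2.1e-04), whereas PDP2 rose from 72.3 and 66.3 CPM to 115 and 116 (0.74 ± 0.15, adjusted p = 0.0036). In ρ0 cells PDP1 had 111 and 92.5 CPM in control and 134 and 129 in arginine-starved libraries. That rise (0.37 ± 0.11, adjusted p = 0.03) was lost under total count scaling (adjusted p = 0.0569), with a weight for each group (0.0943) and with the ρ0 libraries alone (0.0993). It was also lost without any 1 arginine-starved library of either line (log2 fold changes between 0.35 and 0.41). The difference between the lines for PDP1 was 1.30 ± 0.15 (adjusted p = 0.0011), and leaving out either ρ0 control library gave 1.44 and 1.15. PDP2 rose in ρ0 cells as well, from 52.1 and 36.4 CPM to 73.5 and 72.2 (0.72 ± 0.15, adjusted p = 0.0086). Its call was lost with the ρ0 libraries alone (adjusted p = 0.0609) and without ρ0 arginine-starved replicate 1 (log2 fold change 0.72). The regulatory subunit gene PDPR, which has near-identical copies in the genome, had values of -0.09 ± 0.08 and 0.12 ± 0.08, and neither passed (adjusted p = 0.37 and 0.28).

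**Figure D3:**
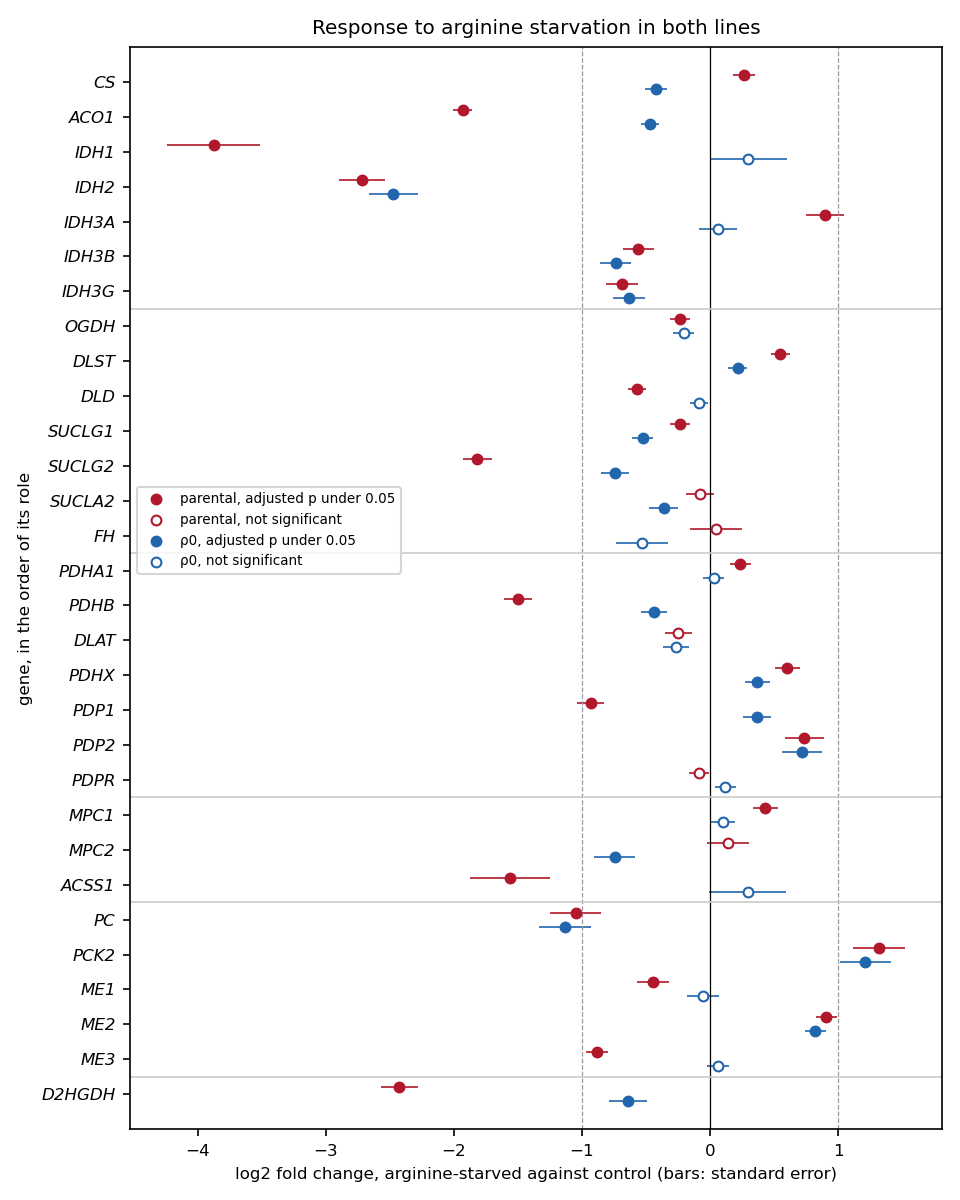
Log2 fold change of arginine-starved against control libraries (horizontal axis) for the 30 genes in parental (red) and ρ0 (blue) cells, with bars for the standard error, filled points where the adjusted p-value was under 0.05 and dashed lines at -1 and 1. IDH1 (-3.87 and 0.30), ACSS1 (-1.56 and 0.29), D2HGDH (-2.42 and -0.64) and ACO1 (-1.93 and -0.47) show wide gaps between the lines, while the points of IDH2, PC, PCK2 and ME2 lie close together.

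Of the genes for entry of pyruvate and acetate, the carrier subunits MPC1 and MPC2 form 1 complex. MPC1 rose in parental cells from 24.5 and 25.6 CPM to 32.4 and 35.3 (0.43 ± 0.10, adjusted p = 0.0053), which was lost without parental arginine-starved replicate 2 (0.37, adjusted p = 0.0551), and had 18.4 and 17.3 CPM in ρ0 control and 19.1 and 19.0 in ρ0 arginine-starved libraries (0.10 ± 0.10, adjusted p = 0.46). MPC2 had 24.6 and 27.1 CPM in parental control and 28.0 and 28.9 in parental arginine-starved libraries (0.14 ± 0.16, adjusted p = 0.48). In ρ0 cells it went from 88.2 and 62.1 CPM to 43.2 and 46.6. That fall (-0.74 ± 0.16, adjusted p = 0.0089) was lost with the ρ0 libraries alone (adjusted p = 0.0633) and without ρ0 arginine-starved replicate 1 (-0.67) or replicate 2 (-0.78). The difference between the lines (-0.88 ± 0.23, adjusted p = 0.02) was lost without any 1 library other than a ρ0 control (log2 values between -0.957 and -0.812). The exons of MPC2 share 22.5% of their bases with DCAF6, whose log2 fold changes were -1.65 in parental and -0.51 in ρ0 cells and whose log2 difference between the control groups was 0.08 (adjusted p = 0.77).

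ACSS1, the mitochondrial acetyl-CoA synthetase that activates acetate, had 23.1 and 22.9 CPM in parental control and 7.72 and 7.87 in parental arginine-starved libraries. In ρ0 cells it had 22.4 and 10.4 CPM in control and 19.8 and 20.3 in arginine-starved libraries. The parental groups were far apart, while the starved ρ0 values lay between the control values. The log2 fold change was -1.56 ± 0.31 (adjusted p = 0.0031) in parental cells, and in ρ0 cells it was 0.29 ± 0.30 (adjusted p = 0.47), with 0.95 and -0.15 without ρ0 control replicate 1 and 2. The difference of 1.85 ± 0.43 (adjusted p = 0.013) was 2.51 and 1.37 without these libraries and did not pass without either parental arginine-starved library (adjusted p of 0.054 and 0.0536). The cytosolic acetate enzyme ACSS2 fell in both lines, by -2.72 ± 0.15 in parental (adjusted p = 1e-05) and -0.99 ± 0.14 in ρ0 cells (adjusted p = 0.0014).

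Pyruvate carboxylase (PC) and mitochondrial phosphoenolpyruvate carboxykinase (PCK2) moved in opposite directions, each in the same direction in both lines. PC, which makes oxaloacetate from pyruvate, went from 109.9 and 115 CPM to 56.7 and 52.2 in parental cells and from 198 and 122 CPM to 72.0 and 73.9 in ρ0 cells. PCK2, which makes phosphoenolpyruvate from oxaloacetate in the matrix, went from 21.5 and 21.9 CPM to 55.1 and 53.1 in parental cells and from 24.0 and 39.3 CPM to 75.5 and 71.2 in ρ0 cells. Control and starved libraries did not overlap for either gene in either line. For PC the log2 fold changes were -1.05 ± 0.20 (adjusted p = 0.0025) and -1.13 ± 0.20 (adjusted p = 0.0038), and for PCK2 they were 1.32 ± 0.20 (adjusted p = 8.4e-04) and 1.21 ± 0.20 (adjusted p = 0.0029). The differences between the lines were -0.08 ± 0.28 for PC (adjusted p = 0.84) and -0.11 ± 0.28 for PCK2 (adjusted p = 0.79). Without ρ0 control replicate 1 the ρ0 changes became -0.74 for PC and 0.90 for PCK2, below the fold threshold, and without replicate 2 they became -1.43 and 1.62.

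The malic enzymes, which convert malate to pyruvate, were split by isoform. The mitochondrial ME2 rose in parental cells from 34.0 and 33.0 CPM to 63.6 and 62.0 (0.91 ± 0.08, adjusted p = 6.3e-05) and in ρ0 cells from 28.8 and 27.8 CPM to 51.3 and 48.8 (0.82 ± 0.08, adjusted p = 3.9e-04). The difference between these responses was -0.08 ± 0.12 and did not pass (adjusted p = 0.59). The mitochondrial NADP-dependent ME3 fell in parental cells from 73.5 and 74.4 CPM to 41.4 and 38.7 (-0.88 ± 0.09, adjusted p = 9e-05), and in ρ0 cells it had 47.7 and 48.8 CPM in control and 48.0 and 53.0 in arginine-starved libraries (0.07 ± 0.09, adjusted p = 0.58). The difference for ME3 was 0.95 ± 0.12 (adjusted p = 0.0014) and was called under each alternative that was run. The cytosolic ME1 had 28.3 and 29.9 CPM in parental control and 21.0 and 21.7 in parental arginine-starved libraries, and its fall (-0.44 ± 0.12, adjusted p = 0.015) was lost without parental control replicate 2 or either parental arginine-starved library (adjusted p between 0.0647 and 0.0861). In ρ0 cells ME1 lay between 18.6 and 23.3 CPM in all 4 libraries.

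D2HGDH, which oxidizes D-2-hydroxyglutarate back to α-ketoglutarate, had 17.4 and 17.1 CPM in parental control and 3.48 and 2.94 in parental arginine-starved libraries. The ρ0 libraries had 4.58 and 4.99 CPM in control and 3.04 and 3.11 in arginine-starved cells. The parental control libraries thus stood above all 6 others. The log2 fold change was -2.42 ± 0.15 in parental cells (adjusted p = 1.4e-05), and the difference between the lines was 1.79 ± 0.21 (adjusted p = 0.001). The ρ0 change of -0.64 ± 0.15 (adjusted p = 0.012) was lost with a weight for each group (adjusted p = 0.241) and with the ρ0 libraries alone (0.087). It was also lost without either ρ0 arginine-starved library (log2 fold changes of -0.61 and -0.63).

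**Figure D4:**
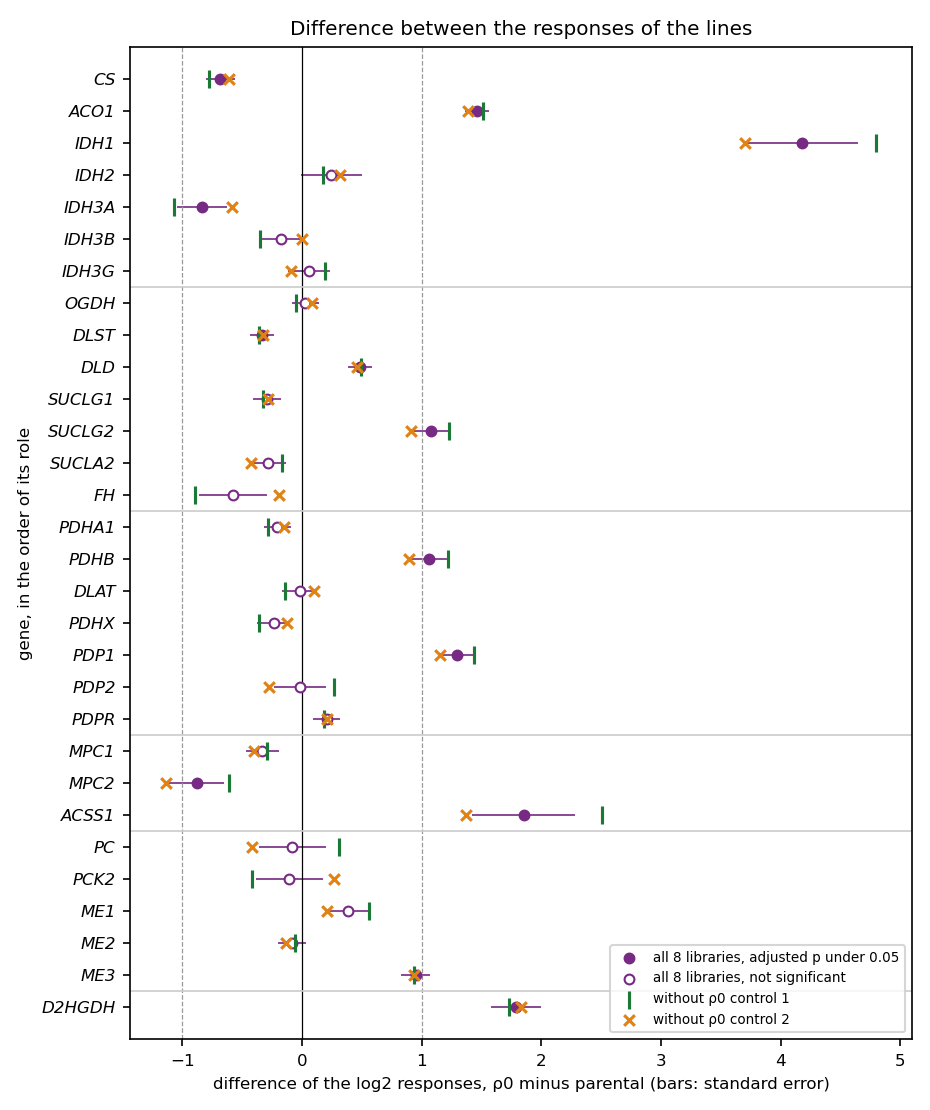
Difference between the log2 responses, ρ0 minus parental (horizontal axis), for the 30 genes, with bars for the standard error, filled circles where the adjusted p-value was under 0.05, and the value without ρ0 control replicate 1 (green bars) or 2 (orange crosses). The 13 filled circles have both marks on their own side of 0, and the marks of IDH1 (4.80 and 3.70) and ACSS1 (2.51 and 1.37) are the widest apart among them.

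Another 31 genes of the pathway were listed from textbook knowledge, and 30 of them were tested (PCK1 had too few reads). In parental cells 8 of the 30 rose and 16 fell, against 30.4% and 35.5% of all tested genes. In ρ0 cells 5 rose and 8 fell, near the 19.2% and 22.1% of all tested genes. The difference between the lines passed for 14, with 9 above and 5 below 0, against 21.6% and 18.8%. Of the succinate dehydrogenase genes, SDHA, SDHB and SDHC fell in parental cells (-0.48 ± 0.08, -0.42 ± 0.08 and -0.69 ± 0.09) and SDHD rose (0.26 ± 0.07). The cytosolic malate dehydrogenase gene MDH1 fell from 224 and 239.7 CPM to 67.0 and 71.2 in parental cells (-1.75 ± 0.15, adjusted p = 5.1e-05), while the mitochondrial MDH2 had 227 and 232 CPM in control and 215 and 213 in arginine-starved libraries (-0.10 ± 0.07, adjusted p = 0.26). OGDHL, a relative of OGDH, had 49 and 35 counts in parental control and 0 in both parental arginine-starved libraries, so that it was at least 11.9-fold lower when 0 is replaced by 3 counts per library.

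The kinases that switch the pyruvate dehydrogenase complex off were split as well. PDK1 rose in parental cells from 23.6 and 20.5 CPM to 50.9 and 48.2 (1.17 ± 0.11, adjusted p = 6.5e-05), and PDK2, PDK3 and PDK4 fell (-0.90 ± 0.13, -1.38 ± 0.22 and -1.27 ± 0.19). In ρ0 cells PDK1 had 38.2 and 42.3 CPM in control and 49.7 and 50.7 in arginine-starved libraries (0.32 ± 0.10, adjusted p = 0.043), and its difference between the lines was -0.85 ± 0.15 (adjusted p = 0.0043). LIPT1, a lipoyltransferase for the E2 enzymes, rose in both lines (1.37 ± 0.14 and 1.03 ± 0.14). SLC25A10, the mitochondrial dicarboxylate carrier, fell in both, from 43.2 and 45.6 CPM to 7.01 and 6.74 in parental cells and from 43.6 and 65.6 CPM to 11.4 and 10.6 in ρ0 cells.

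Without starvation, ρ0 cells differed from parental cells in many of the 30 genes. At an adjusted p-value under 0.05, 6 were higher and 15 were lower in ρ0 cells, where the background was 30.5% higher and 31.8% lower, so the share that was lower was above the background. DEGs were MPC2, which was higher, and IDH2, PDP1 and D2HGDH, which were lower, so 1 and 3 of 30 against 13.6% higher and 17.3% lower over all tested genes. The median log2 difference was -0.28 over the 30 genes and -0.01 over all tested genes, and the groups did not overlap for 27 genes, against 77.1% of all tested genes. This comparison shares its control libraries with both starvation responses, so the values of 1 gene in them are not independent. Beside it stand the markers expected to be low in MDA-MB-231, whose summed level was between 0.729 and 0.959 CPM in parental control and between 46.1 and 48.1 CPM in ρ0 control libraries. CDH1, EPCAM and ASS1, 3 of the 5, account for that, with ESR1 and PGR at 3 counts or fewer in each ρ0 library, and CDH1 was at least 155-fold higher in ρ0 control cells. Their part in the differences between the lines was not tested.

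MPC2 was higher in ρ0 control cells by 1.54 ± 0.16 on the log2 scale (adjusted p = 1.4e-04), while its partner MPC1 was lower (-0.49 ± 0.10, adjusted p = 0.0033, and 0.088 with a weight for each group). Also higher were the pyruvate dehydrogenase genes DLAT (0.85 ± 0.10, adjusted p = 2.8e-04) and PDHB (0.59 ± 0.11, adjusted p = 0.002), while PDHX was lower (-0.47 ± 0.10, adjusted p = 0.0041) and PDHA1 did not pass (-0.01 ± 0.08, adjusted p = 0.96). All 3 genes of the phosphatases were lower, with PDP1 at -1.03 ± 0.11 (adjusted p = 1.4e-04), PDP2 at -0.65 ± 0.15 (adjusted p = 0.0076) and PDPR at -0.27 ± 0.08 (adjusted p = 0.021). Without ρ0 control replicate 2 the value of PDP1 was -0.85, below the fold threshold. PDP2 lost its call without parental control replicate 1 (-0.58), and PDPR without that library or either ρ0 arginine-starved library. The call of PDPR was also lost with a weight for each group (adjusted p = 0.199), with the control libraries alone (0.149) and without the low-count filter (0.0605). The E1 and E2 genes of the 2-oxoglutarate dehydrogenase complex differed in direction, with DLST lower (-0.71 ± 0.07, adjusted p = 1.1e-04) and OGDH at 0.22 ± 0.08 (adjusted p = 0.04), a call that was lost under 5 alternatives and without any 1 parental library (adjusted p of up to 0.142).

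On the path from citrate to α-ketoglutarate, IDH2 apart, the lower genes in ρ0 control cells were CS (-0.67 ± 0.09, adjusted p = 3.8e-04) and ACO1 (-0.97 ± 0.07, adjusted p = 2.7e-05), and IDH3G was higher (0.67 ± 0.12, adjusted p = 0.0021). D2HGDH was lower by -1.85 ± 0.14 (adjusted p = 2.8e-05) and IDH2 by -1.31 ± 0.17 (adjusted p = 3.5e-04). SUCLG2 (-0.80 ± 0.11) and SUCLG1 (-0.50 ± 0.08) were lower too, with adjusted p of 4.8e-04 and 0.0011. Among the malic enzymes ME3 was lower (-0.62 ± 0.09, adjusted p = 5.5e-04), and the smaller differences of ME1 (-0.48 ± 0.12, adjusted p = 0.012) and ME2 (-0.24 ± 0.08, adjusted p = 0.033) were lost with a weight for each group (adjusted p = 0.0625 and 0.305). ME1 was also lost without parental control replicate 2 (adjusted p = 0.0686), and ME2 without any 1 library other than a ρ0 control (adjusted p of up to 0.132). PCK2 (0.55 ± 0.20, adjusted p = 0.046) was lost under 7 alternatives and without any 1 library other than a ρ0 control (adjusted p of up to 0.164). For IDH1 (0.19 ± 0.30, adjusted p = 0.61), ACSS1 (-0.49 ± 0.30, adjusted p = 0.19) and PC (0.51 ± 0.20, adjusted p = 0.056), the difference did not pass, and each value rested on which ρ0 control library was used. Without replicate 1 and 2, respectively, it was -0.44 and 0.68 for IDH1, -1.14 and 0.02 for ACSS1 and 0.12 and 0.87 for PC. PC passed with no filter on low counts (adjusted p = 0.0307), with the DESeq2 test (0.0304) and with a weight for each group (0.0327).

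**Figure D5:**
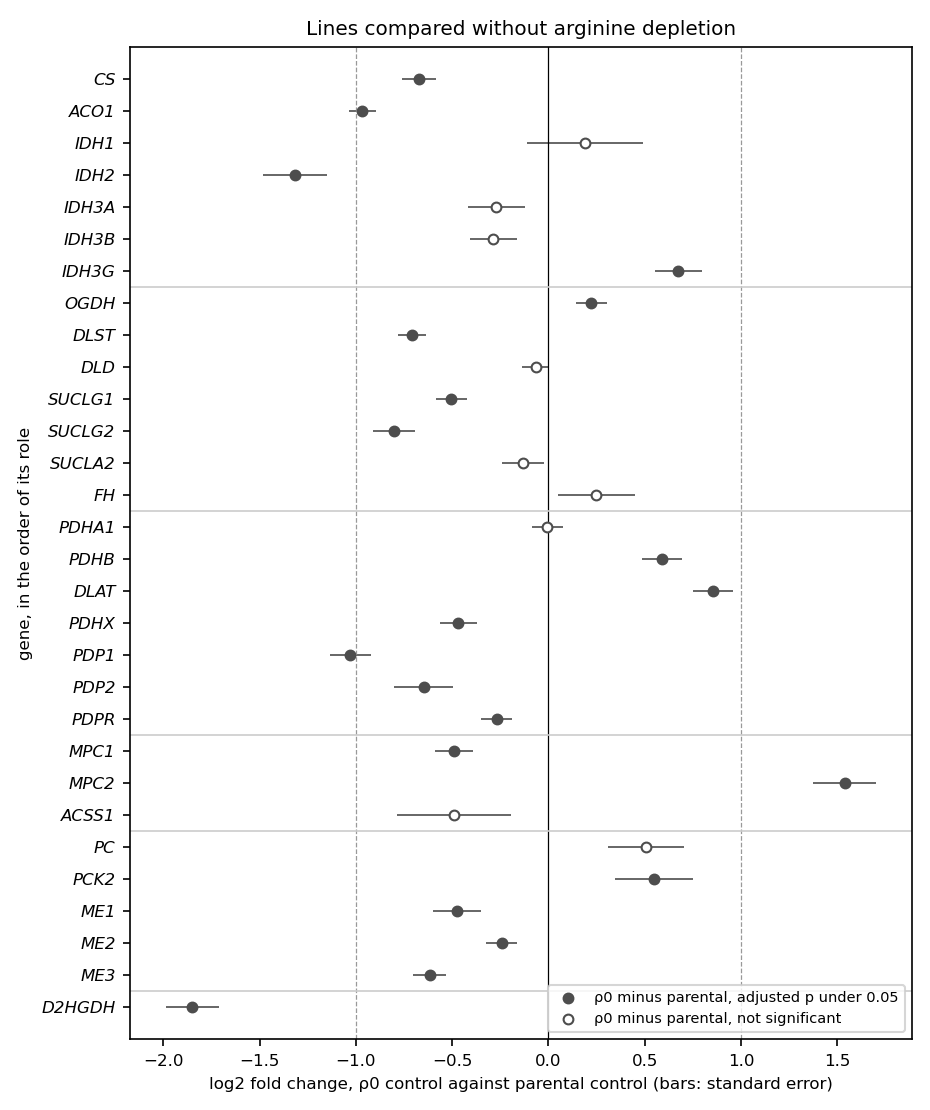
Log2 difference between ρ0 control and parental control libraries (horizontal axis, positive where ρ0 cells were higher) for the 30 genes, with bars for the standard error, filled points where the adjusted p-value was under 0.05 and dashed lines at -1 and 1. MPC2 (1.54) lies beyond the upper line, and D2HGDH (-1.85), IDH2 (-1.31) and PDP1 (-1.03) lie beyond the lower one.

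Over the 30 genes together, the summed level was 2813 and 2836 CPM in parental control, 2318 and 2331 in parental arginine-starved, 2472 and 2444 in ρ0 control and 2178 and 2164 in ρ0 arginine-starved libraries. The sum was lower in the starved libraries of both lines, and abundant genes weigh most in it. In parental cells ACO1 alone went from a mean of 341 to 89.5 CPM, while 11 of the 30 genes were higher and 19 lower. As a description of the promoters, the letters TGATGNAA of the amino acid response element, on either strand, were found in 3.62% of 35116 RefSeq windows of GRCh38.p14 that run from 250 bases before to 50 after a gene's start. None of the 28 genes with a window held them, PCK2 included, while a window of ASNS did. The letters TCAAGGTCA of the estrogen-related receptor site were in 0.353% of the windows and in 0 of the 28.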

How the data were processed

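RNA-seq was analysed for 8 libraries of total RNA, 2 per group. The authors deposited 1 table of raw, unnormalized read counts by gene symbol. The submitters' processing notes name Bowtie, Partek and hg19, and versions, annotation and strand setting are not given in the sources used here. Genes are reported by symbol, without coordinates.

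The analysis used edgeR 4.0.16 in R 4.3.3. Genes were kept by filterByExpr (15262 of 23393), libraries were scaled by TMM, and edgeR's quasi-likelihood test took all 8 libraries in 1 fit, with a mean for each group (4 residual degrees of freedom, prior 3.40, biological coefficient of variation 12.4%). P-values were adjusted by Benjamini-Hochberg over all tested genes. The standard error (SE) was taken as the size of the log2 fold change over the root of its F statistic. The precision of a value is set by 2 libraries per group, by its counts and by 1 estimate of the gene's spread over all 4 groups. An SE is therefore not the spread of the compared libraries alone. For ACSS1 it was 0.31 in parental and 0.30 in ρ0 cells, although only the ρ0 control replicates lay far apart. With the ρ0 libraries alone, 9 of the 18 calls in ρ0 cells were lost. With the parental libraries alone, 2 genes came past the threshold. Where nothing says that replicates were separate cultures, p-values measure only the spread between these libraries, which may be technical.

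The 30 genes, the other gene lists and the tests were chosen with earlier results of these data known. Values of each library are given for genes that passed the fold threshold in at least 1 comparison and for complexes or isozyme sets whose members passed in opposite directions, and other genes only from fixed lists of the pathway, markers, ATF4 and ASNS. The values of 1 gene of these lists are not reported here. Exon overlaps were taken from GENCODE on GRCh38, which is not the build of the counts, and reads of overlapping genes cannot be told apart without a strand setting.

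Alternatives were DESeq2's size factors, upper quartile and total count scaling, no low-count filter, a filter at 10 counts in each library, the DESeq2 1.42.0 test, limma 3.58.1 (voom, also with a weight for each group), a block for the replicate number, fits to the compared libraries only, other fold thresholds and leaving out each library. A library left alone in its group was assumed to vary like the others.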

Additional observations from a re-analysis of the deposited data

Results flagged for a closer look

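For 13 of the 30 genes the response to arginine starvation differed between ρ0 and parental cells by the interaction test, against 40.4% of all tested genes, and each is given here as the ρ0 response minus the parental response on the log2 scale. The differences above 0 were 4.17 for IDH1, 1.85 for ACSS1, 1.79 for D2HGDH, 1.46 for ACO1, 1.30 for PDP1, 1.07 for SUCLG2, 1.06 for PDHB, 0.95 for ME3 and 0.48 for DLD. The differences below 0 were -0.88 for MPC2, -0.84 for IDH3A, -0.68 for CS and -0.33 for DLST. Those of IDH3A, MPC2 and DLST were lost when any 1 library other than a ρ0 control was left out. Groups of 2 libraries are too small for a test of single libraries that stand apart.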

How the results depend on the processing

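Of 1170 values under the alternatives that left out no replicate (30 genes, all comparisons), 1097 kept their side of the threshold, 55 were no longer past it, 18 came past it and 0 changed sign with a call. Of 960 values with 1 library left out, 829 kept their side, 94 lost it, 32 came past it and 5 changed sign with a call. Over the libraries left out, IDH3A in ρ0 cells ranged from -0.17 to 0.35, IDH1 between the control groups from -0.44 to 0.68, and in the difference of the responses PDP2 ranged from -0.28 to 0.26, PC from -0.42 to 0.31 and PCK2 from -0.42 to 0.27, with each end of a range reached without 1 of the ρ0 control replicates. With a log2 threshold of 0.5, or with none, DEGs became 6 or 9 higher and 13 or 16 lower in parental cells, 3 or 6 higher and 8 or 12 lower in ρ0 cells, and 5 or 6 higher and 10 or 15 lower between the control groups. In ρ0 cells the number that rose went from 6 to 3 under total count scaling, 3 with group weights and 2 with the ρ0 libraries alone, where the number that fell went from 12 to 7, with fewer samples in the fit. Leaving out 1 library gave 2 to 8 that rose and 6 to 16 that fell, 0 to 1 DEGs higher and 1 to 2 lower. It gave 1 to 11 genes with a difference below 0 and 2 to 5 DEGs lower between the control groups. These counts include fits without a ρ0 control library, which the pair with the widest spread no longer enters, so their calls are not compared. With 1 library left out, the values that came past the threshold or changed sign with a call were all from such fits. Upper quartile and total count scaling moved the median of all genes in the parental response by -0.12 and -0.16, and the rises of CS and PDHA1 were lost under both. Replicate numbers did not pair the samples (correlations of the deviations from -0.053 to 0.0386). With the replicate number as a block, the calls lost were DLST in the difference (adjusted p = 0.0583) and in ρ0 cells (0.0755), SUCLA2 in ρ0 cells (0.0542), and OGDH (0.0593) and PCK2 (0.0544) between the control groups, and no other call of the 30 genes changed. The cause of these changes was not tested. Each group holds 2 libraries, and the effect of depth was not compared.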
